A study of Mus musculus with 10 samples.

Results

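The 10 genes described here mark the T cells that live between the epithelial cells of the small intestine: the T cell receptor partners Cd3d, Cd3e and Cd3g, the co-receptor chain Cd8a, the surface proteins Cd7 and Ptprc, the integrin chain Itgae, the granzymes Gzma and Gzmb and the chemokine Ccl5. They were found as every array probe whose gene name was one of these symbols, which gave 18 of the 41174 gene probes and 10 of the 28034 names carried by the array. The rule used names and no measured value, but the 10 genes were chosen with earlier results of these data known. Shares of all genes set beside them below are therefore a description and no independent support. All 10 genes had a probe that was well above background in the crypts, and 13 of the 18 probes passed that filter.

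Intraepithelial lymphocytes are mostly CD8 T cells that sit above the basement membrane. They are held there by the integrin αE (Itgae) with β7, which binds E-cadherin on the epithelial cell, and they carry granzymes ready made. Crypts shaken out of the tissue with EDTA can bring some of these cells along, whereas organoids grown from crypts contain epithelium and no blood-derived cells. The crypt arrays can therefore hold a T cell signal, and the organoid arrays give the level of the same probes in epithelium alone.

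The study used 10 two-colour Agilent mouse arrays. On 4 of them, small intestinal crypts of AhCre (also written P450Cre) Lgr4fl/fl Lgr5fl/fl mice, taken 1 day after deletion of both receptors was induced, were hybridised against crypts labelled as wild type controls. These 4 arrays are a dye-swapped pair for each of 2 biological replicates. The other 6 arrays carried organoids in Cy5 and reference RNA of mixed mouse origin, bought in, in Cy3. They held 2 cultures from VillinCre wild type mice 1 day after tamoxifen, 2 from VillinCre Lgr4fl/fl-Lgr5fl/fl mice 1 day after deletion, and 1 culture each with R-spondin and without it for 1 day, all in a medium based on EGF and Noggin. AhCre is driven by the Cyp1a1 promoter, which answers to ligands of the aryl hydrocarbon receptor, and VillinCre by a promoter of the gut epithelium. The sources used here give neither the agent that induced AhCre nor the genotype or treatment of the wild type crypt mice, and nothing says whether crypts of several animals were pooled.

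The arrays of replicate 2 were cleaner than those of replicate 1. Over 14236 probes the dye-swapped ratios correlated at 0.92 in replicate 2 and 0.351 in replicate 1, and between 0.338 and 0.395 across replicates. Between 40.2% and 63.1% of gene spots were well above background in Cy5. In Cy3 the share was between 3.66% and 4.26% on the 4 organoid deletion arrays, so organoid results use Cy5 alone. The deleted receptors were lower in deleted crypts on all 4 arrays, with log2 changes of -1.56 for Lgr4 and -1.68 for Lgr5, although neither passed the adjusted test (limma adjusted p = 0.0893 and 0.0885).

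Some of the probes are printed here because the 3 CD3 genes gave different results and the probe sequence defines what was measured. Each is written 5′ to 3′ with positions in mouse build mm9 as the files give them. The probes for Cd3d, Cd3g and Itgae are aligned over 232, 585 and 1459 bases although each is 60 bases long, so each is split across at least 1 intron and reads spliced RNA. The Gzma probe covers 60 contiguous bases. Of the second Cd3e probe, which was not used for the ratios, the first 30 bases are shown.
Cd3d, chr9:44794171-44794402, plus strand: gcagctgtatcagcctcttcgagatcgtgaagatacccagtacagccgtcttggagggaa
Cd3g, chr9:44781716-44782300, minus strand: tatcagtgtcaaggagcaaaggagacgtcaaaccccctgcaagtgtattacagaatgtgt
Itgae, chr11:72959105-72960563, plus strand: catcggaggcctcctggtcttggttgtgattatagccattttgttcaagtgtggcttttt
Gzma, chr13:113885986-113886045, minus strand: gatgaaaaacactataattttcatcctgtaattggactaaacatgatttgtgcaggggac
Cd3e second probe, chr9:44811984-44812043, minus strand: ctaggaaacatcgatggtaaaaattaagtc
Both Cd3e probes cover 60 contiguous bases. The second one was not well above background on any of the 10 arrays.

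In deleted crypts 9 of the 10 genes gave more than 2 times the wild type signal on every array that measured them, and Cd3e did not. Ccl5, the chemokine that draws T cells and is stored by cytotoxic ones, gave 5.5 times the wild type signal, Cd7 4.32 times and Itgae 4.03 times. A difference of this size on every array was found for 0.786% of the 12206 genes tested. The median log2 ratio of the 10 genes was 1.76, against -0.02 over all genes tested. None of the 10 passed the test of limma after Benjamini-Hochberg adjustment with 2 replicates, where 0.0492% of all genes passed as higher and 0% as lower. At an unadjusted p under 0.05, 9 of the 10 passed, all higher, against 6.44% of all genes on the higher and 7.3% on the lower side. The same 9 genes were above 0 on every array with a value, as were 17.3% of all genes. In bulk crypt RNA, more T cells and more of these transcripts per T cell cannot be told apart.

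Whether these genes passed the test depended on the settings. With the signals processed by the scanner software 9 of the 10 genes passed, beside 322 genes in all that passed as higher and 180 as lower. With median centring in place of loess 9 of the 10 also passed, beside 279 higher and 55 lower, and this centring put the median of all genes at 0.15. Some of the 10 genes passed in 11 of the 15 settings tried. These 11 are not independent, since the deposited log ratios gave the same values as the processed signals. They also include a fit on a single crypt replicate, whose spread is technical, and array removals added after seeing the data. In the main loess setting, with no filter on dim probes, and with signal above background required in both channels, 0 of the 10 passed. The 9 genes other than Cd3e stayed above 0 in all settings that gave a value.

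**Figure D1:**
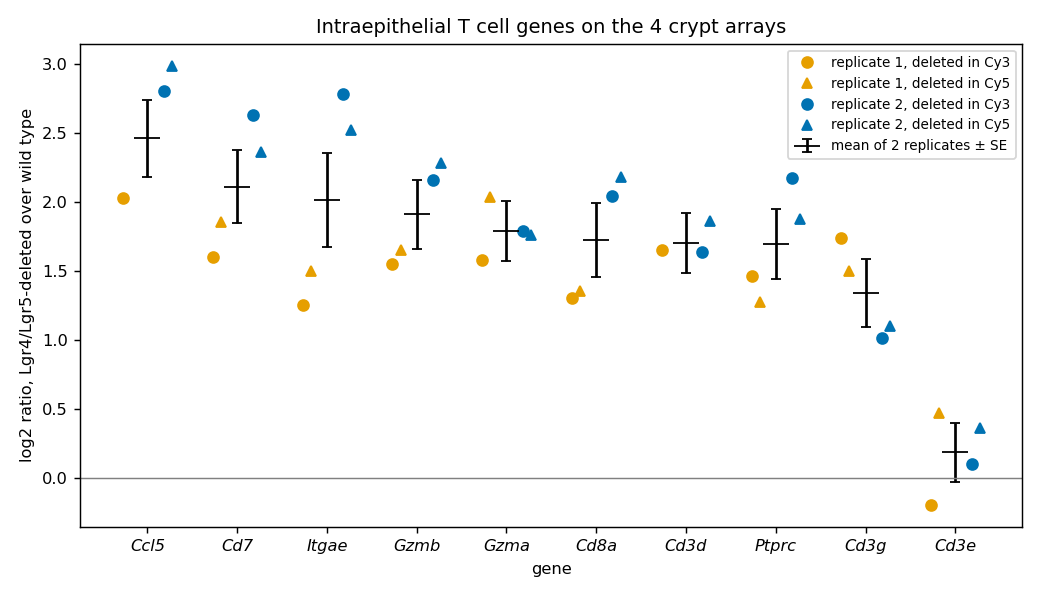
Log2 ratio of deleted over wild type crypts for each of the 10 genes (x axis, ordered by mean). Points are the 4 arrays, coloured by biological replicate and shaped by the dye of the deleted sample, and the black bar is the mean of 2 replicates with its standard error. For 9 genes all points lie above 1, and the points of Cd3e lie between -0.20 and 0.47. Ccl5 and Cd3d have no point for replicate 1 with deleted RNA in Cy5.

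The T cell receptor signals through the CD3 chains, and the 3 of them did not behave alike on this array. Cd3d gave log2 ratios of 1.65 in replicate 1 and of 1.64 and 1.86 on the dye-swapped arrays of replicate 2, while its spot was marked as an outlier on the other array of replicate 1. Its mean log2 ratio was 1.70 (SE 0.22, n = 2, limma adjusted p = 0.0703). The normalised log2 levels of Cd3d lay between 8.44 and 8.47 in wild type and between 10.08 and 10.33 in deleted crypts on the 3 usable arrays, with no overlap. Cd3g, the γ chain, gave 1.73 and 1.50 in replicate 1 and 1.01 and 1.10 in replicate 2. It was 1 of 2 genes of the 10 with a larger ratio in replicate 1, and its mean was 1.34 (SE 0.25, n = 2, limma adjusted p = 0.160).

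Cd3e, the ε chain that pairs with both of the others, stood apart. Its ratios were -0.20 and 0.47 in replicate 1 and 0.10 and 0.36 in replicate 2, so the sign differed between dye-swapped arrays of the same extracts. The mean log2 ratio was 0.18 (SE 0.22, n = 2, limma adjusted p = 0.733), and the levels of the groups overlapped. The probe used for it was well above background on all 6 organoid arrays, with net Cy5 signals between 87.0 and 193.6 there. In the crypts its net Cy5 signal was between 85.1 and 331.6, a range that includes the organoid values. Why this probe reads a similar signal in crypts and in organoids was not tested.

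The genes for the 3 CD3 chains lie together on chromosome 9. By RefSeq on GRCm38.p6 the start sites of Cd3d and Cd3g are 1355 bases apart on opposite strands, and that of Cd3e is 27825 bases from Cd3d. The 300 bases from 250 before to 50 after each start site are shown because Cd3d and Cd3g gave more than 2 times the wild type signal on every array with a value, Cd3g by a small margin in replicate 2, and their neighbour Cd3e did not. Capitals mark ACTTCC, the reverse complement of the ETS family motif GGAAGT, searched on both strands.
Cd3d, chr9:44981536-44981835, plus strand: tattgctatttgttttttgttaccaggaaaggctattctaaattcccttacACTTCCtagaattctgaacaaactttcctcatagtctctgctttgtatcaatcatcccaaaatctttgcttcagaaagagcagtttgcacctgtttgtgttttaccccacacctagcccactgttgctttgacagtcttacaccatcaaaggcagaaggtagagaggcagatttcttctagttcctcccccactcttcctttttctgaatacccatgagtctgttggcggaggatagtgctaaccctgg
Cd3g, chr9:44980382-44980681, minus strand: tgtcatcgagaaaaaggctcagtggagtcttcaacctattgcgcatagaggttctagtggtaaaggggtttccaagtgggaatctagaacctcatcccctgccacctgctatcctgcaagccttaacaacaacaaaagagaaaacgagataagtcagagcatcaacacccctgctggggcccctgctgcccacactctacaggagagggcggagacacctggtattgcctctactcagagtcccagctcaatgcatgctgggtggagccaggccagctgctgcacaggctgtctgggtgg
Cd3e, chr9:45009562-45009861, minus strand: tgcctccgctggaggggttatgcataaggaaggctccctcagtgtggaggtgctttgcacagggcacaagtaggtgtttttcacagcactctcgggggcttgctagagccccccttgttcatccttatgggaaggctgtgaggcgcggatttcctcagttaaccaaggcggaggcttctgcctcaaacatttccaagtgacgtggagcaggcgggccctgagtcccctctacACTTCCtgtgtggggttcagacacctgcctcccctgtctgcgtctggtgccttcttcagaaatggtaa
RefSeq promoters were given for 7 of the 10 genes. GGAAGT was found on either strand in those of Cd3d, Cd3e and Ptprc, and in 23.8% of 32851 promoters of this length. The RUNX family motif TGTGGT was found in those of Gzma and Gzmb, and in 16.8% of all. Such a match describes the letters in the window only.

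Cd8a and Cd7 mark the CD8 T cells of the epithelium more closely. Cd8a, a chain of the co-receptor that binds MHC class I, gave log2 ratios of 1.30 and 1.36 in replicate 1 and of 2.04 and 2.18 in replicate 2. The ratio was 1.72 on average (SE 0.27, n = 2, limma adjusted p = 0.115). This probe is printed 10 times on each array, and the SD among its spots on an array was between 0.061 and 0.24, less than the gap between the replicates. The other Cd8a probes gave mean log2 ratios of 1.73 and 1.33. Cd7, an early T cell surface protein that stays high on intraepithelial lymphocytes, gave 1.60 and 1.85 in replicate 1 and 2.63 and 2.36 in replicate 2, with a mean of 2.11 (SE 0.27, n = 2, limma adjusted p = 0.0703). Levels of Cd7 were between 8.54 and 9.73 in wild type and between 11.00 and 11.33 in deleted crypts, again with no overlap.

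Itgae, the αE chain that anchors the cells to E-cadherin, differed most between the replicates. It gave 1.25 and 1.50 in replicate 1 but 2.78 and 2.52 in replicate 2, for a mean of 2.01 (SE 0.34, n = 2, limma adjusted p = 0.142). A dimmer second Itgae probe gave a mean of 1.46 and did not pass the filter. Ptprc, the phosphatase CD45 on the surface of white blood cells of all kinds, gave 1.46 and 1.28 in replicate 1 and 2.17 and 1.88 in replicate 2, with a mean of 1.70 (SE 0.25, n = 2, limma adjusted p = 0.109). Its main probe is also printed 10 times, with an SD among spots between 0.067 and 0.29. The 3 other Ptprc probes failed the filter on dim signals, with mean log2 ratios of 0.93, 0.09 and 0.10.

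The effector genes gave large ratios too. Ccl5 gave a log2 ratio of 2.03 on the usable array of replicate 1 and of 2.80 and 2.98 in replicate 2. Its mean of 2.46 (SE 0.28, n = 2, limma adjusted p = 0.0623) led the 10 genes, and a second Ccl5 probe with values on all 4 arrays gave 2.63. Gzmb, a serine protease that starts apoptosis in a target cell, gave 1.55 and 1.65 in replicate 1 and 2.15 and 2.28 in replicate 2 (mean 1.91, SE 0.25, n = 2, limma adjusted p = 0.0767). Gzma, a granule protease of the same lymphocytes, was the steadiest gene between the replicates. It gave 1.58 and 2.03 in replicate 1 and 1.79 and 1.76 in replicate 2 (mean 1.79, SE 0.22, n = 2, limma adjusted p = 0.0693). Its levels in wild type crypts were 11.25, 10.72, 11.02 and 10.88, and those in deleted crypts were 12.82, 12.75, 12.81 and 12.64.

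Among the 10 genes, the lowest level in deleted crypts lay above the highest level in wild type crypts for 9, a pattern found for 9.5% of all genes tested. The ratio was larger in replicate 2 for 8 genes and in replicate 1 for Cd3g and Gzma. The median over the genes was 1.61 in replicate 1 and 2.07 in replicate 2, and the dye-swapped arrays of a replicate differed by less than that (1.56 and 1.50, then 2.10 and 2.03). Taking replicate 1 alone or replicate 2 alone left 0 or 8 of the 10 genes past the adjusted test, in a fit over the pair of dye-swapped arrays, whose spread is technical. Leaving out only the replicate 1 array with deleted RNA in Cy3 left 8 of the 10 past it, and leaving out only its dye-swapped partner left 9.

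In organoids these probes were mostly dark. Gzma, Gzmb, Cd3d, Cd8a and Ptprc were well above background on none of the 6 organoid arrays, which held for 49 of the 12206 genes tested in crypts (0.401%). Cd7 and Cd3g were above background on 2 organoid arrays, both from the R-spondin experiment, and Itgae on 4. Ccl5 and Cd3e were above it on all 6, as were 94.2% of the genes. When Cy5 was scaled together over the 10 arrays, 9 of the 10 genes had deleted crypts above wild type crypts and wild type crypts above every organoid. No share over all genes is given for this order, so how common it is stays unknown. For Gzma the Cy5 log2 levels were between 12.52 and 12.58 in deleted crypts, between 10.86 and 11.03 in wild type crypts and between 5.97 and 6.33 in organoids, where the probe was not well above background. For Ccl5 they were 15.52 on the 1 usable deleted array, 12.47 in wild type crypts and between 8.48 and 9.22 in organoids. Crypts and organoids were never on the same array, so these levels are a description.

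**Figure D2:**
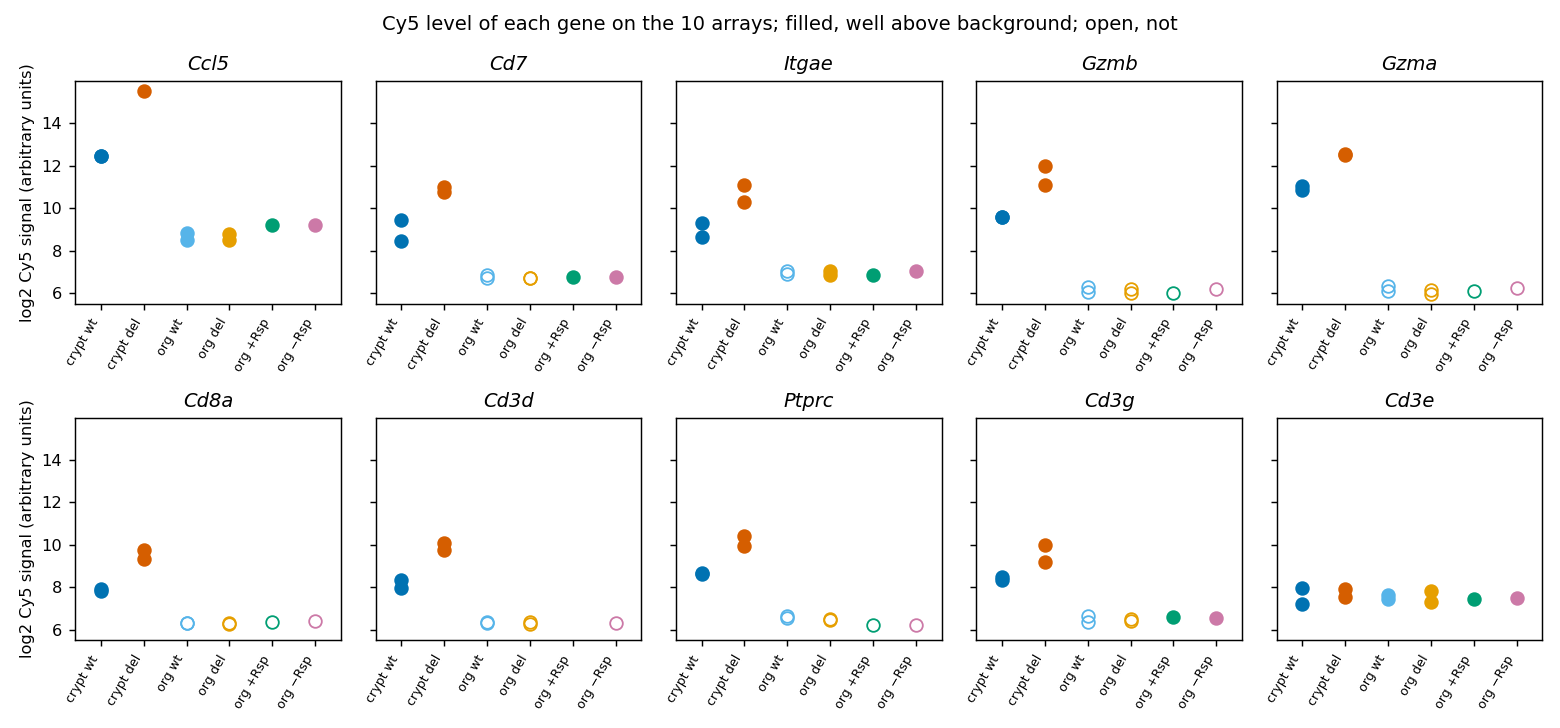
Normalised log2 Cy5 level of each of the 10 genes on each of the 10 arrays, by group (crypt wt and crypt del, wild type and deleted crypts; org wt and org del, wild type and deleted organoids; org +Rsp and org −Rsp, organoids with and without R-spondin). Filled points are well above background and open points are not. Crypt points lie above the organoid points in 9 panels, and in the Cd3e panel all groups lie between 7.23 and 7.96.

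After deletion of the same receptors in organoids, no T cell gene that could be tested passed. Only Ccl5, Cd3e and Itgae passed the filter among the 4 organoid deletion arrays. Itgae did so through the deleted group only, with dim net Cy5 signals of 68 and 49 in wild type and 57 and 68 in deleted organoids. Ccl5 had Cy5 log2 levels of 8.18 and 8.56 in wild type and of 8.47 and 8.22 in deleted organoids, a difference of -0.03 (SE 0.24, n = 2 and 2, limma adjusted p = 0.998). Itgae differed by -0.03 (SE 0.21) and Cd3e by 0.02 (SE 0.26), both with the same adjusted p, and their groups overlapped. Over 13311 genes tested in organoids, 0.0301% passed as higher and 0.00751% as lower, and 7.74% had an unadjusted p under 0.05 in either direction, none of these 3 among them. The crypt change minus the organoid change was 2.49 for Ccl5 (SE 0.42, limma adjusted p = 0.116) and 2.04 for Itgae (SE 0.49, limma adjusted p = 0.407), so neither difference passed, where 0.0541% of 11083 genes passed as higher in crypts. Without R-spondin, net Cy5 was 838 for Ccl5 against 809 with it, and 114 against 87.8 for Itgae. Each value is from 1 culture, so it has no replicate check.

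Genes of lists other than the 10 could be tested when their probe was above background in 1 crypt group only. Above background in a group means here on all crypt arrays, so the other group could still reach it on some. This way in favours genes that differ, although Cxcl11, let in so, gave 0.02. Counts and medians of the T cell lists are therefore no support for a shared direction. All 10 intraepithelial T cell genes were above background in both crypt groups, as were 11110 of the 12206 genes tested. Of the list for the T cell receptor complex and its signalling, 11 of 30 genes were tested and none passed the adjusted test. In 5 of the 11 the probe was above background in both groups, with a median log2 ratio of 1.25, against 1.38 over the 11. The largest were Cd6, a surface receptor, at 2.20, the kinase Lck at 1.66, Cd5 at 1.64 and Thy1 at 1.49, and of these only Cd6 was above background in both groups. In this list the 2 replicates differed more than among the 10 genes, with array medians of 0.64 and 0.73 in replicate 1 and 1.97 and 2.01 in replicate 2.

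Probes whose description in the files names a T cell receptor numbered 34, and 7, all for receptor chains, passed the filter. Their mean log2 ratios were between 0.98 and 2.01, the highest for a γ chain probe and 1.86 for a constant segment of the β chain. These probes too could pass through 1 crypt group only. The β chain and γ chain probes among these 7 were however above background on 5 or 6 organoid arrays each, unlike Cd3d or Cd8a. Dimmer γ chain probes at 0.76 and 0.84, which failed the filter, were above background on 0 of the 6.

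In the cytotoxic and chemokine list 7 of 19 genes were tested with a median of 1.10, and none passed the adjusted test. The 6 genes above background in both crypt groups had a median of 1.08, and Fasl was above it in 1 group only. Srgn, the proteoglycan of the granule, gave 1.69, Nkg7 1.65, Ctsw 1.16 and Fasl, the death ligand, 1.10. Perforin (Prf1), Ifng, Gzmk and Gzmm did not pass the filter on dim probes. Of the T cell surface list 3 of 13 genes were tested, with values of 2.20 for Cd8b1, 1.45 for Cd96 and 0.93 for Cd244a, and Cd96 was above background in 1 crypt group only. Cd8b1, the β chain that pairs with Cd8a, gave 1.19 on the usable array of replicate 1 and 3.23 and 3.16 in replicate 2 (SE 0.47, n = 2, limma adjusted p = 0.189). Cd4 was on the array and did not pass the filter.

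Receptors that bring T cells to the gut gave a median of 1.17 over 7 tested genes of 13, and of 1.24 over the 4 that were above background in both crypt groups, a set without Cxcr3, Cxcr6 and Itgb2. Itgb7, the β7 partner of Itgae, gave 1.98, near the 2.01 of its partner. Selplg gave 1.47, Cxcr6 1.35 and Cxcr3 1.17, and the gut-homing receptor Ccr9 gave 1.01. Factors and cytokine receptors of lymphocytes were mixed, with 6 tested, 4 above 0 and a median of 0.35, and a median of -0.18 over the 3 above background in both groups. Il2rb, the receptor chain for IL-15, gave 1.64 and Ets1 0.66, while Tcf7 gave -0.18 and Bcl11b -0.58. Il2rb and Ets1 were above background in 1 crypt group only, and Tcf7 and Bcl11b in both.

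The epithelial genes that hold or feed these lymphocytes stayed near 0 as a group, with 9 tested, 6 above 0 and a median of 0.12. E-cadherin (Cdh1), the ligand of Itgae, gave -0.06 and the survival factor Il15 gave 0.12. Btnl1, a butyrophilin-like protein that supports γδ lymphocytes, gave 0.64, Il18 gave 1.03 and Tnfrsf14 gave -0.29. None of the 9 passed the adjusted test.

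**Figure D3:**
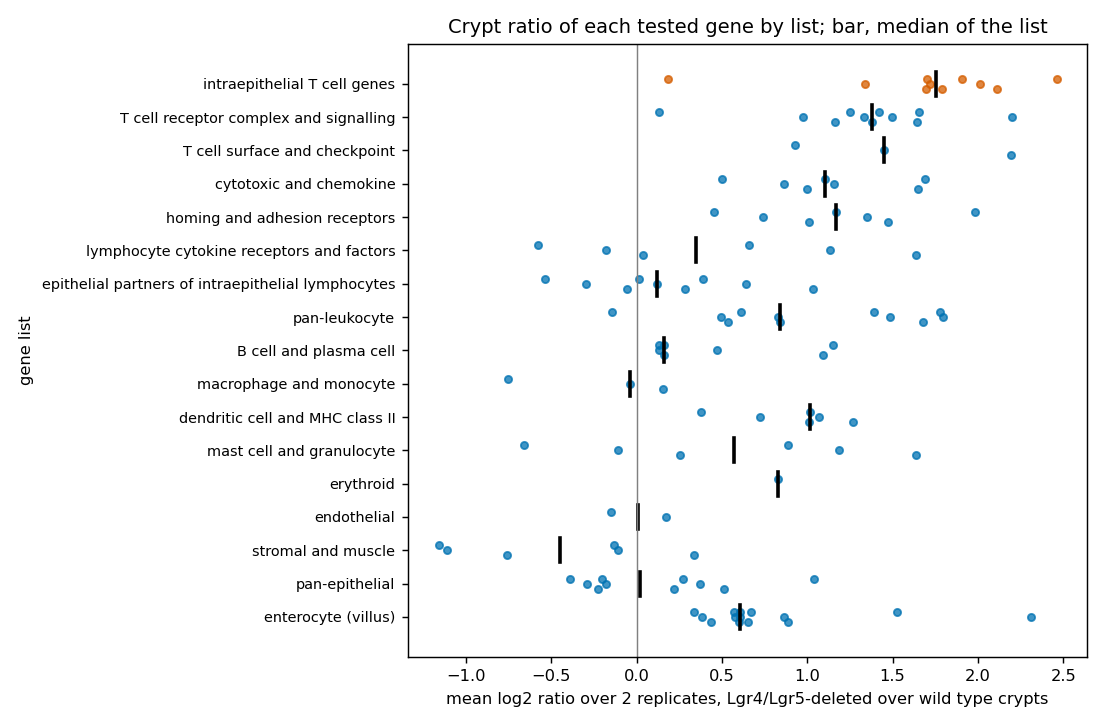
Mean log2 ratio of deleted over wild type crypts (x axis) of each tested gene by gene list (y axis); black bars are list medians and the 10 intraepithelial T cell genes are in orange. The 4 lists for T cell signalling, T cell surface, cytotoxic and homing genes have medians between 1.10 and 1.45 over genes that could be let in by 1 crypt group, the 10 genes 1.76, and the pan-epithelial, endothelial and macrophage lists lie near 0.

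Lists for other cell types were measured on the same arrays, and none had a gene that passed the adjusted test. Of 11 pan-leukocyte genes tested 10 were above 0 (median 0.84), led by Cd52 at 1.80 and Coro1a at 1.78. The B cell and plasma cell list had a median of 0.16 over 7 genes, with Cd79b at 1.15 and Ighm at 1.09, and Cd79a did not pass the filter. The macrophage list had a median of -0.04 over 3 genes, and Adgre1, Csf1r and Cd68 did not pass the filter. Endothelial genes had a median of 0.01 over 2 genes. Fibroblast and muscle genes had a median of -0.45 over 6 genes, with Col1a2 at -1.16, Col3a1 at -1.11 and Dcn at -0.76, all 3 above background in 1 crypt group only. Tagln, at 0.34, was the 1 gene of the 6 above 0. Over the 3 above background in both crypt groups the median was -0.11. The mast cell and granulocyte list had a median of 0.57 over 6 genes. S100a9 gave 1.64, S100a8 1.18, Mcpt1 0.89 and Mcpt2 0.25, while Fcer1a gave -0.11 and Kit -0.66. Over Mcpt1 and Kit, the 2 above background in both crypt groups, the median was 0.11. The 1 erythroid gene tested, the haemoglobin gene Hba-a1, gave 1.73 and 1.60 in replicate 1 and -0.15 and 0.13 in replicate 2. Pan-epithelial genes had a median of 0.02 over 10 genes.

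The villus enterocyte list lay on the same side as the T cell genes, with a mean above 0 for 14 of 14 tested genes and a median of 0.61, and every one was above background in both crypt groups. In deleted organoids the median of its 14 genes was 0.42 and none passed the adjusted test. Cy5 levels, normalised together over the 10 arrays, were summed on a linear scale over the genes with a value on all 10. For 6 enterocyte genes the sum was between 59280 and 90200 in wild type crypts and between 81770 and 114800 in deleted crypts. In organoids it was between 54010 and 136600, so the groups overlapped for these 6 genes. Left out were Ada, Anpep, Apob, Fabp1, Fabp2, Rbp2, Sis and Slc2a5, which lacked a value on some array. Ada at 2.31 and Fabp1 at 1.53 had the largest crypt ratios of the list, so the sum does not describe the whole list. For 8 of the T cell genes, without Ccl5 and Cd3d, the sum was between 4518 and 5398 in wild type crypts and between 14520 and 16790 in deleted crypts. In organoids it was between 779.5 and 844, with no overlap. Intraepithelial lymphocytes are denser in villi than in crypts. The part of villus tissue in the T cell result was not tested. The enterocyte medians were 0.73 and 0.82 on the arrays of replicate 1 and 0.37 and 0.52 on those of replicate 2, the opposite order to the T cell genes.

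MHC class II genes also ran against the T cell genes between replicates. The dendritic cell and MHC class II list gave array medians of 1.39 and 1.56 in replicate 1 but 0.17 and 0.25 in replicate 2. H2-Aa gave 2.92 and 1.90 in replicate 1, and only 0.12 and 0.14 on the arrays of replicate 2. The dendritic cell genes Itgax, Flt3, Zbtb46 and Xcr1 did not pass the filter.

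**Figure D4:**
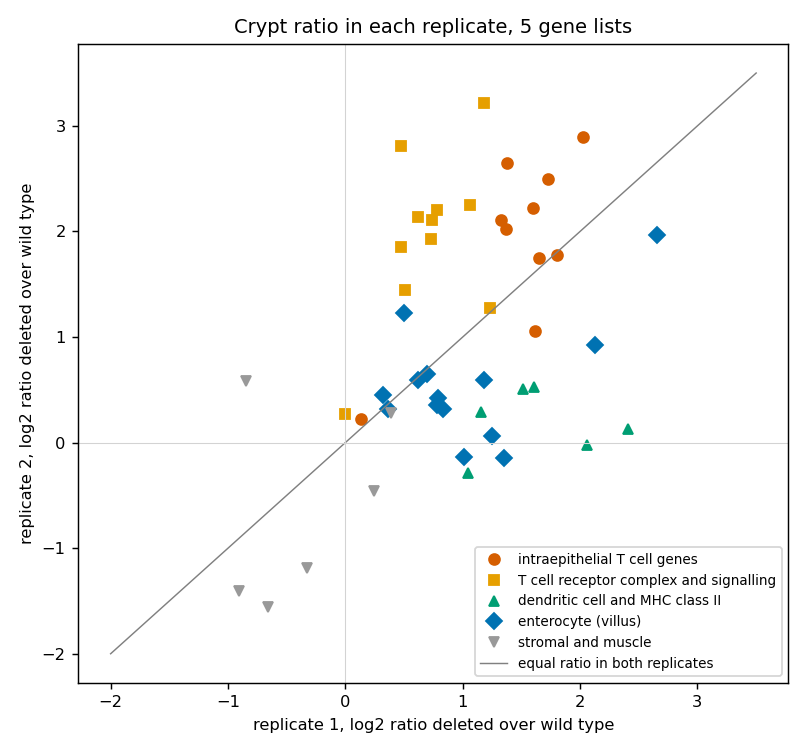
Log2 ratio of deleted over wild type crypts in replicate 2 (y axis) against replicate 1 (x axis) for each tested gene of 5 lists; the line marks equal ratios. Most of the 10 T cell genes and the T cell receptor signalling genes lie above the line, MHC class II genes lie below it, and Cd3e is near the origin at 0.14 and 0.23.

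The 6 genes that passed the adjusted test in crypts were not T cell genes. Cbr3, Akr1b8, Gsta3, Cyp1a1 and Ces1g encode enzymes that handle foreign compounds, and the sixth carries a clone name. Cyp1a1, whose promoter drives AhCre and which is a target of the aryl hydrocarbon receptor, gave a log2 ratio of 3.66 (SE 0.25, n = 2, limma adjusted p = 0.0214). The receptor's repressor Ahrr gave 2.97 (SE 0.31, n = 2, limma adjusted p = 0.0623). Both were higher on 4 of 4 arrays. Both were larger in replicate 2, as was the median of the T cell genes. Nqo1, looked at with them, had the opposite order, with 2.20 in replicate 1 and 0.92 in replicate 2. Its mean log2 ratio was 1.56 (SE 0.34, n = 2, limma adjusted p = 0.189). The part of a response of the aryl hydrocarbon receptor in the T cell result was not tested.

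Of 10025 genes with a value on all 4 arrays, those whose ratios were nearest to the median profile of the 10 genes were ranked by root-mean-square distance. Cd52, a leukocyte surface protein, was nearest at 0.12, and Coro1a and 3 T cell receptor β chain probes were among the nearest 10. The others were Osgin1, Pmm1, Aldh1a7, Gsta4 and Gpr151, with mean log2 ratios between 1.67 and 1.97. Within the 10 genes the distance from their own median profile ran from 0.15 for Ptprc to 1.65 for Cd3e.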

How the data were processed

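The authors deposited 1 Agilent Feature Extraction table per array with spot intensity in Cy3 and Cy5, local background and log10 ratios, and a table of log10 ratios of the same arrays. The submitters' processing notes name version 8.5.1.1 of that software, whereas all 10 tables name 10.5.1.1, per the file headers. No probe design other than that in the files was used, and the build of the coordinates is mm9, per the file headers. With limma 3.58.1 in R 4.3.3, marked outlier spots were left out, background was corrected by normexp (offset 50, which shrinks changes of dim probes), and crypt ratios were normalised by loess within each array. To be tested, a probe had to exceed background clearly on all arrays of 1 group or more, and the brightest passing probe stood for a gene. The ratios of a dye-swapped pair were given the same direction and their mean taken, which left n = 2, and this was tested against 0 by lmFit and eBayes with Benjamini-Hochberg adjustment at 0.05. Organoid Cy5 was quantile normalised. Genes without a usable spot on 1 array of a replicate rest on the other. The T cell receptor chain probes were chosen after their values were seen, and so was the comparison with Cyp1a1, Ahrr and the other genes outside the lists. The members and lists were chosen with earlier results of these data known. Named genes were the 10 members, up to 4 genes per list with the largest mean change among those with 1 sign on all 4 crypt arrays, and the 10 nearest in pattern; a few further genes of the lists are named after their values were seen. Whether the replicates were separate animals is not given in the labels, so p-values measure the spread between these samples. The number of arrays limits the precision. A few items are not reported here.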

Additional observations from a re-analysis of the deposited data

Results flagged for a closer look

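The Cy3 channel of the arrays from the R-spondin experiment holds a commercial mouse reference RNA used in no comparison here. There Ccl5, Ptprc, Cd3g and Cd3d were well above background, with signals more than 3 times those of the organoid RNA on both arrays. The net Cy3 signal on the array without R-spondin was 15731 for Ccl5, 9257 for Ptprc and 1545 for Cd3g, and on the array with R-spondin it was 17167, 9611 and 1820. The net Cy5 signal of the organoids there was 838 for Ccl5, 28.1 for Ptprc and 55.6 for Cd3g, without R-spondin. Cd3d gave 138 and 164 in the reference against 35.0 and 48.6 in organoids. Smaller gaps were seen for Itgae, with 169 and 179 against 114 and 87.8, and Cd7, with 97.8 and 106 against 78.1 and 73.8. Cd3e gave 185 and 223 in the reference, close to its 194 and 177 in organoids, and Gzma, Gzmb and Cd8a were not well above background in the reference. The dyes differ between the channels, so these are signals and not a ratio of transcripts.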

How the results depend on the processing

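The number of genes called in crypts depended on the settings, and the direction of 9 of the 10 genes did not in any setting that gave a value. With loess, 6 genes were called higher, 0 lower and 0 of the 10 T cell genes, and the median of the 10 was 1.76. Counts below are given as higher, lower and T cell genes. Processed signals of the scanner software, and the deposited log ratios, gave 322, 180 and 9 with a median of 2.12. Median centring gave 279, 55 and 9 with a median of 2.10. Keeping marked spots gave 31, 10 and 2, the mean of probes 74, 20 and 8, and all 4 arrays with a random block 365, 257 and 9. Arrays with deleted RNA in Cy5 alone gave 80, 30 and 7, and those in Cy3 alone 238, 201 and 9. No filter on dim probes gave 0 higher. Leaving out a crypt replicate gave from 3 to 205 higher, from 0 to 393 lower, from 0 to 8 T cell genes and medians from 1.61 to 2.07. Alternatives added after seeing the data, which left out the replicate 1 array with deleted RNA in Cy3 or in Cy5, gave 131, 55 and 8, or 248, 211 and 9. Cd3e turned to -0.05 with deleted RNA in Cy3 alone. The cause was not tested. In organoids 4 genes were called higher and 1 lower. The ratio to the Cy3 reference and no filter gave 0 and 0, processed Cy5 signals 43 and 37, marked spots kept 1 and 0, the slide as a block 141 and 193, and leaving out a culture from 2 to 68 and from 1 to 35. The small organoid changes of 3 genes crossed 0. Ccl5 gave 0.014 by ratio and 0.077 by processed signals, and Itgae 0.055 and 0.167. Leaving out a culture gave from -0.216 to 0.162 for Ccl5 (0.099 without deleted replicate 2), from -0.101 to 0.044 for Itgae (0.022 without wild type replicate 1) and from -0.243 to 0.288 for Cd3e (-0.084 without wild type replicate 2). None of the 3 passed in any of these fits. On the crypt arrays 40.2% to 56.9% of gene spots were well above background in Cy5, which limits what can be said of dim T cell genes such as Cd4.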

Other observations

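Among the crypt genes that were well above background on none of the 6 organoid arrays, 49 in all, 37 had a mean log2 ratio above 0 and 12 below, with a median of 0.93. Beside the 5 T cell genes already described, the set held the lymphocyte genes Cxcr6 at 1.35, Ctsw at 1.16, Fasl at 1.10 and Klrd1 at 1.00, the neutrophil genes S100a9 at 1.64 and S100a8 at 1.18, the goblet cell product Retnlb at 2.33 and the enterokinase gene Tmprss15 at 2.27. Many of these probes passed the filter in 1 crypt group only, which favours genes that differ. In the 16 that were above background in both crypt groups, 12 were above 0 and the median was 1.43. These 16 include the 5 T cell genes, at 1.70 to 1.91, so this median is no separate observation. The others ran from 2.97 for Ahrr to -0.60 for Tmeff1. None of the 49 passed the adjusted test of limma (the smallest adjusted p was 0.0623). Slc1a2, a glutamate transporter, was lowest at -1.06.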
